A study of Mus musculus with 4 samples.

Results

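The cyclin and Myc genes of the early forelimb bud were compared between Shh null and wild-type mouse embryos. The 10 genes were taken by name: the D-type cyclin genes Ccnd1, Ccnd2 and Ccnd3, the E-type genes Ccne1 and Ccne2, the A- and B-type genes Ccna2, Ccnb1 and Ccnb2, and the transcription factor genes Myc and Mycn. All 10 were found among the 17712 genes of the deposited table, and all 10 passed the filter on low values. RNA was sequenced from forelimbs of littermate embryos of Swiss Webster, an outbred mouse stock, with 33 to 35 somites (E10.5 by one label and E10.25 by another). The groups were 2 Shh null libraries and 2 wild-type libraries. The labels do not describe the Shh allele or how many embryos went into a library, and the design text calls the libraries of a group technical replicates, so every p-value here measures only the spread between these libraries.

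Cyclins are the regulatory subunits of cyclin-dependent kinases (CDKs), and their levels drive a cell through division. D-type cyclins pair with CDK4 and CDK6 in G1 in response to growth signals, E-type cyclins pair with CDK2 at the entry into DNA replication, and A- and B-type cyclins act with CDK2 and CDK1 from S phase into mitosis. MYC and MYCN are related transcription factors that promote growth and division. Shh encodes Sonic hedgehog, which the posterior margin of the limb bud secretes. In mouse cerebellar granule cell precursors it is known to raise Mycn and Ccnd1, and in the chick wing it is known to promote proliferation.

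Values are in CPM, the reads of a gene scaled by the authors to the TMM-adjusted size of the library. The libraries held 23206944 and 21489093 reads in Shh null and 29620468 and 18456502 reads in wild type, and each gene of the 10 had at least 185 reads in every library. Shh itself was at 3.15 and 2.42 CPM in Shh null and at 11.4 and 7.88 CPM in wild type, and the hedgehog target Gli1 at 0.249 and 0.366 CPM in Shh null and 16.6 and 16.0 CPM in wild type, in the direction of the labels. The hedgehog receptor gene Ptch1, also a target, was at 5.93 and 7.14 CPM in Shh null and 32.4 and 35.1 CPM in wild type. Genes with at least 1 CPM in at least 2 libraries (13224) were tested with limma on log2(CPM + 1), and a gene is called where its Benjamini-Hochberg adjusted p was under 0.05. All log2 differences are Shh null minus wild type on that scale. The forelimb gene Tbx5 was at 80.2 and 64.96 CPM in Shh null and 65.03 and 61.5 CPM in wild type. Of 2 hindlimb genes, Pitx1 was below the filter and Tbx4 passed it. Tbx4 was at 3.69 and 3.11 CPM in Shh null and 4.53 and 3.69 CPM in wild type (limma adjusted p = 0.576). The summed level of 5 erythroid genes was 3725 and 6329 CPM in Shh null against 10973 and 2938 CPM in wild type, and 0 of the 5 were called by limma, edgeR or DESeq2 or had an unadjusted limma p under 0.05. That of 4 macrophage genes was 16.5 and 15.3 CPM in Shh null against 8.32 and 7.77 CPM in wild type. Of the 4, 1 (Cx3cr1) was called higher, and 3 had an unadjusted limma p under 0.05, each higher. The summed level of 7 limb mesenchyme genes was 1143 and 1121 CPM in Shh null against 787 and 809 CPM in wild type. Prrx1, Prrx2 and Twist1 were called higher and Fgf10 lower. The unadjusted limma p was under 0.05 for 5 of the 7, of which 4 were higher. None of 6 surface ectoderm, 5 endothelium and 3 muscle precursor genes was called by these tools. In that order, 2, 0 and 1 of them had an unadjusted limma p under 0.05. Over all tested genes 18.5% had such a p, and 2.48% were called by limma. All 5 sex-linked genes looked at were called. The Y-linked gene Ddx3y was at 39.1 and 42.3 CPM in Shh null and 119 and 106 CPM in wild type, and Xist, expressed from the inactive X, at 522 and 468 CPM in Shh null and 225 and 152 CPM in wild type. None of the 10 genes lies on a sex chromosome. The sex-linked differences ran with genotype in these libraries, so sex content and genotype cannot be told apart. The part of these contents in the results below was not tested. In such bulk samples, fewer cells of a type and less RNA per cell cannot be told apart.

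Of the 10 genes, Ccnd1 and Ccne1 fell in Shh null forelimbs, 8 were not called, and 0 were called higher. Over all tested genes 2.48% were called, 1.24% higher and 1.24% lower. The unadjusted limma p was under 0.05 for 3 of the 10 (Ccnd1, Ccne1 and Mycn), each lower in Shh null, and for 0 that were higher. Over all tested genes it was under 0.05 for 18.5%, and for 9.02% that were lower. With edgeR 1 of the 10 was lower, against 2.45% of all tested genes called and 1.12% called lower, and 0 were higher. DESeq2 called 3 of the 10 lower and 0 higher, against 2.06% lower and 1.91% higher over all tested genes. The authors' deposited table gave 3 of the 10 as lower at a false discovery rate under 0.05, against 1.68% of its genes. The Shh null and wild-type libraries did not overlap for 6 of the 10 genes (Ccnd1, Ccnd3, Ccne1, Ccna2, Ccnb1 and Mycn), in each with Shh null lower. Over all tested genes the groups did not overlap in 50.2%, and in 25% Shh null was the lower group. The log2 difference was below 0 for 9 of the 10 genes, with a median of −0.22, against 50.1% of all tested genes and a median of −0.0005. That count was 8, with a median of −0.14, with quantile normalization, and 7, also with a median of −0.14, with library size as the only scaling.

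**Figure D1:**
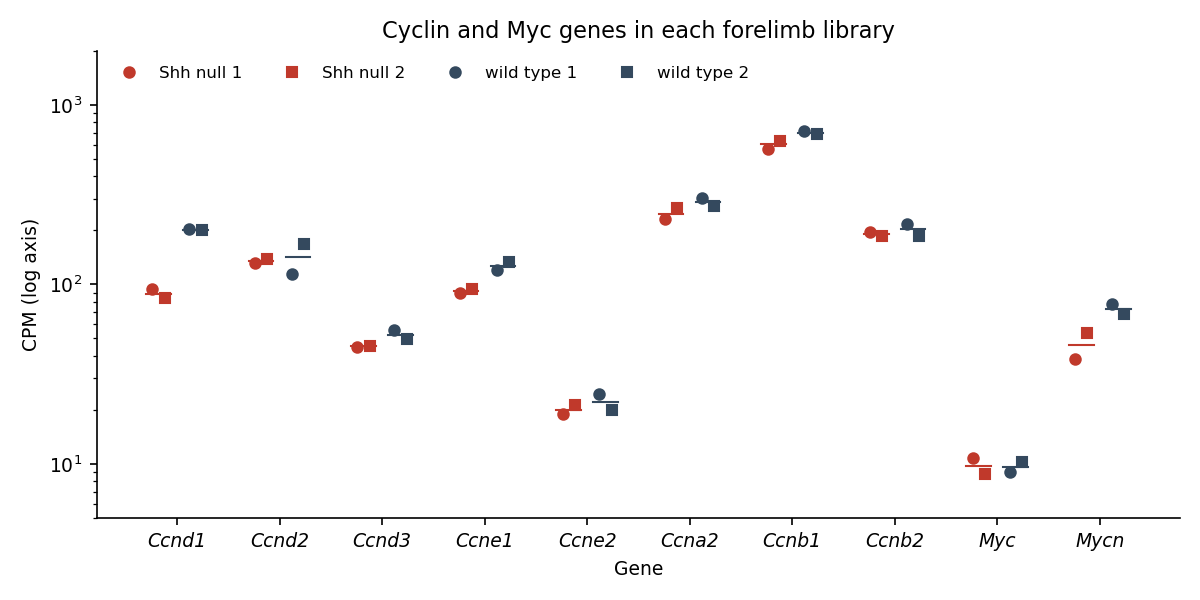
CPM (log axis) of the 10 cyclin and Myc genes in each library, Shh null in red left of wild type in dark blue. Circles are libraries numbered 1, squares libraries numbered 2, and lines group means. The Ccnd1 values of 93.9 and 83.7 CPM in Shh null lie well below those of 203 and 200 CPM in wild type, and Myc is the gene with the lowest level.

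Ccnd1 fell the furthest of the 10. It encodes cyclin D1, which links growth signals to the G1 kinases (chr7:144929931-144939925, minus strand, mm10). Its level was 93.9 and 83.7 CPM in Shh null (2265 and 1829 reads), against 203 and 200 CPM in wild type (5782 and 3623 reads). The groups lay far apart: the lower wild-type library was 2.12 times the higher Shh null library. The means of 88.8 ± 7.26 CPM in Shh null and 201 ± 2.35 CPM in wild type (SD, n = 2 each) differed 2.27-fold, with a log2 difference of −1.17 ± 0.10 (SE; 95% interval −1.40 to −0.95; limma adjusted p = 0.000321). On the pooled reads, scaled by the authors' TMM-adjusted library sizes, the ratio of Shh null to wild type was 0.442 (95% exact binomial interval 0.426 to 0.458, counting error only). The call held in all 14 alternatives, with log2 differences from −1.26 to −1.09. By p-value Ccnd1 ranked 18 among the 13224 tested genes. In the authors' deposited table its log2 fold change was −1.18, with a false discovery rate of 1e-15.

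The other D-type genes were not called. Ccnd2, which encodes cyclin D2 (chr6:127125162-127152193, minus strand), was at 131 and 139 CPM in Shh null and 114 and 169 CPM in wild type, so both Shh null libraries lay between the wild-type libraries. Its log2 difference was −0.03 ± 0.16 (SE; 95% interval −0.39 to 0.32; limma adjusted p = 0.937). The wild-type library with the lower Ccnd2 value was the one with the erythroid sum of 10973 CPM. That library was also the lower wild-type one for Ccne1 and Myc. It was the higher one for Ccnd1, Ccnd3, Ccne2, Ccna2, Ccnb1, Ccnb2 and Mycn, and a link to the erythroid sum was not tested. Ccnd3, which encodes cyclin D3 (chr17:47505051-47599691, plus strand), was at 45.0 and 45.1 CPM in Shh null and 55.4 and 49.6 CPM in wild type. The groups did not overlap, but the difference of −0.22 ± 0.11 (SE; 95% interval −0.46 to 0.03) did not pass the test (limma adjusted p = 0.327).

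The shares of the D-type transcripts were also compared. Per kilobase of protein-coding exons, Ccnd1 made up 39.8% and 36.4% of the summed D-type level in Shh null, against 57.8% and 54.0% in wild type. Ccnd2 made up 31.0% and 33.7% in Shh null and 18.0% and 25.4% in wild type, and Ccnd3 29.1% and 30.0% in Shh null and 24.1% and 20.5% in wild type. Each of the 3 shares was separated between the groups, with an exact two-sided permutation p of 0.333, the smallest that 2 against 2 libraries allow. The 3 shares of a library add up to the whole, so their separations are not independent of each other. The ratio of Ccnd1 to Ccnd2 per kilobase was 1.28 and 1.08 in Shh null and 3.21 and 2.12 in wild type. In absolute terms the summed D-type level was 269 ± 1.63 CPM in Shh null and 395 ± 32.5 CPM in wild type (SD, n = 2 each). These shares show unequal change and not that Ccnd2 or Ccnd3 stayed the same. Their sizes depend on the exon lengths used, which were 3740 bases for Ccnd1, 6711 for Ccnd2 and 2447 for Ccnd3. Over all annotated transcripts the exon union was 4709 bases for Ccnd1, 9409 for Ccnd2 and 8775 for Ccnd3. Shares with these longer lengths were not computed.

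**Figure D2:**
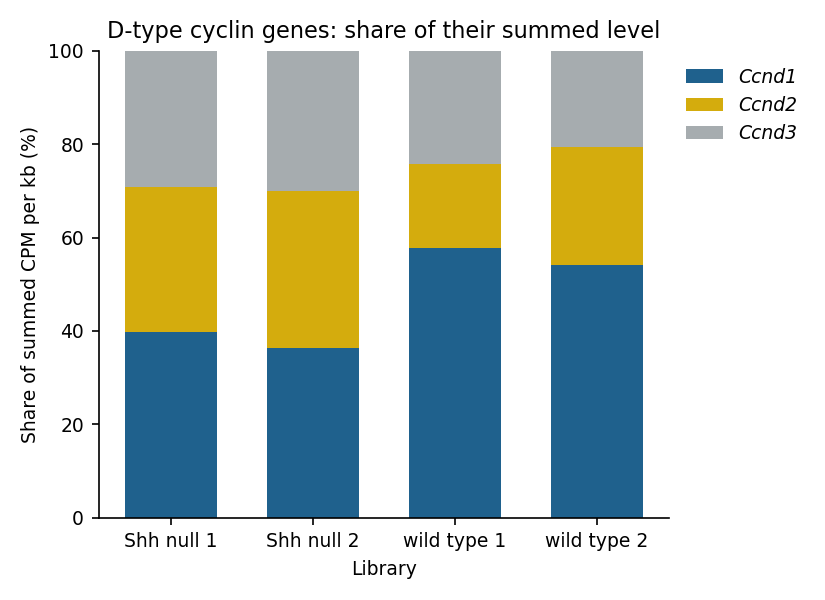
Share (%) of Ccnd1, Ccnd2 and Ccnd3 in the summed D-type level, in CPM per kilobase of exon, in each library, Shh null libraries on the left. The Ccnd1 segment reaches 39.8% and 36.4% in Shh null and 57.8% and 54.0% in wild type.

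Of the E-type genes, Ccne1 fell and Ccne2 was not called. Ccne1 encodes cyclin E1, which activates CDK2 at the start of replication (chr7:38097984-38107534, minus strand). It was at 88.9 and 94.5 CPM in Shh null (2144 and 2065 reads), against 121 and 133 CPM in wild type (3437 and 2413 reads). The groups did not overlap, and the lower wild-type library was 1.28 times the higher Shh null library. The mean was 91.7 ± 3.92 CPM in Shh null and 127 ± 8.71 CPM in wild type (SD, n = 2 each), a log2 difference of −0.46 ± 0.10 (SE; 95% interval −0.69 to −0.24; limma adjusted p = 0.0457). This call was near the threshold: it held in 6 of 14 alternatives and ended in the other 8. These were no filter (adjusted p = 0.0782), quantile normalization (0.107), library size alone (0.0866), edgeR (0.052), the replicate block (0.0527), and the fits without Shh null 1 (0.336), Shh null 2 (0.118) or wild type 2 (0.0932). In the authors' deposited table the false discovery rate of Ccne1 was 0.0189. Ccne2, which encodes cyclin E2 (chr4:11191351-11204779, plus strand), was at 18.8 and 21.3 CPM in Shh null and 24.4 and 19.8 CPM in wild type. These groups overlap, with a log2 difference of −0.13 ± 0.14 (SE; 95% interval −0.45 to 0.20; limma adjusted p = 0.678). Ccne1 made up 88.3% and 87.7% of the summed E-type level per kilobase in Shh null and 88.8% and 91.5% in wild type.

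The promoter of Ccne1 is shown because Ccne1 was 1 of the 2 called genes. It comes from RefSeq (GRCm38.p6, chr7:38107441-38107740, minus strand) and runs 5′ to 3′ from 250 bases before to 50 bases after the annotated start. Capitals mark motif matches, searched on both strands in every promoter printed here. For E2F the letters searched were TTTCGCGC, and also TTTGGCGC, and as a further form TTTCCCGC. The cell cycle homology region (CHR) was searched as TTTGAA. The CCAAT box was searched by the letters of its name. The E-box, which MYC binds with MAX, was searched as CACGTG. For the hedgehog effectors of the GLI family the letters were GACCACCCA. For the cyclic AMP response element they were TGACGTCA. None of these letters matched the Ccne1 window, which is therefore all in lower case and has a GC content of 76%. Only exact letters were searched, so the lack of a match does not mean that variant sites are absent.
Ccne1: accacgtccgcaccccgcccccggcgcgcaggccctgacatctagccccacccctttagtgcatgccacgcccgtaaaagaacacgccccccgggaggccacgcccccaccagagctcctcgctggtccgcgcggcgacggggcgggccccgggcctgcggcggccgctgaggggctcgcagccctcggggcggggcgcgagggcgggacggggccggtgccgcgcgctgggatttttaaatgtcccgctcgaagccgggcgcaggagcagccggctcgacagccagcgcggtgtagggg

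The A- and B-type genes, which act from S phase into mitosis, were the 3 with the highest level per kilobase of exon in both groups, and none was called. Ccna2, the gene of cyclin A2 (chr3:36564865-36572150, minus strand), was at 230 and 264 CPM in Shh null and 301 and 272 CPM in wild type. Ccnb1, which encodes the mitotic cyclin B1 (chr13:100778650-100786570, minus strand), was at 571 and 631 CPM in Shh null and 710 and 691 CPM in wild type. In both genes the Shh null libraries were the lower ones, by a narrow gap. Their log2 differences were −0.22 ± 0.11 (SE; 95% interval −0.46 to 0.03) for Ccna2 and −0.22 ± 0.10 (SE; 95% interval −0.46 to 0.01) for Ccnb1, with limma adjusted p = 0.321 and 0.29. Ccnb2, the gene of cyclin B2 (chr9:70407692-70421547, minus strand), was at 196 and 186 CPM in Shh null and 218 and 187 CPM in wild type. Its groups overlap, with a log2 difference of −0.08 ± 0.11 (SE; 95% interval −0.32 to 0.16; limma adjusted p = 0.731). The intervals of all 3 reach below −0.3 on the log2 scale. Ccnb1 made up 54.5% and 56.6% of the summed A- and B-type level per kilobase in Shh null and 55.9% and 58.5% in wild type.

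Promoters of cell cycle genes expressed in G2 and mitosis are known for CCAAT boxes and for the CHR element, which the DREAM and MuvB complexes bind. The Ccnb2 promoter is shown as an example with both motifs (RefSeq, GRCm38.p6, chr9:70421505-70421804, minus strand, 5′ to 3′). Its capitals mark 3 matches to the CCAAT box, beginning at bases 164, 197 and 230, and 2 matches to CHR, beginning at bases 84 and 255, with the annotated start after base 250. Of 32851 promoters of this length in the table, 37.4% held the CCAAT box and 17.9% held CHR on either strand. The Ccnb1 promoter held 2 matches to the CCAAT box, at bases 152 and 184.
Ccnb2: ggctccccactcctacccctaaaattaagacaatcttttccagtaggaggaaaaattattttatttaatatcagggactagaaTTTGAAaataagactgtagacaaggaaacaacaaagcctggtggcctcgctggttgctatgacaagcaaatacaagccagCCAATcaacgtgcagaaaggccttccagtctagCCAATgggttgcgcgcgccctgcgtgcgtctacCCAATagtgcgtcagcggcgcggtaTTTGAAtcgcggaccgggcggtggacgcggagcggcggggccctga

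Of the Myc genes, Mycn was lower in both Shh null libraries, whereas the Myc libraries overlapped. Mycn (chr12:12936093-12941914, minus strand) was at 38.2 and 53.8 CPM in Shh null (920 and 1176 reads), against 77.7 and 68.1 CPM in wild type (2213 and 1236 reads). The groups did not overlap, and the Shh null libraries differed more from each other than the wild-type libraries did. The mean was 46.0 ± 11.1 CPM in Shh null and 72.9 ± 6.77 CPM in wild type (SD, n = 2 each). The log2 difference of −0.67 ± 0.15 (SE; 95% interval −1.02 to −0.32) did not pass the test (limma adjusted p = 0.0566). It was not called by edgeR either (0.0637), but was by DESeq2 (0.00518), with the replicate block (0.0171), without Shh null 2 (log2 difference −0.91, 0.0396), without wild type 1 (0.0263) and without wild type 2 (0.000893). Without Shh null 1 the log2 difference was −0.43 (adjusted p = 0.367). In the authors' deposited table Mycn had a log2 fold change of −0.67 and a false discovery rate of 0.00587. Myc (chr15:61985391-61990374, plus strand) was the least abundant of the 10, at 10.8 and 8.78 CPM in Shh null and 9.02 and 10.19 CPM in wild type. Its log2 difference was 0.02 ± 0.16 (SE; 95% interval −0.35 to 0.39; limma adjusted p = 0.965). The ratio of Mycn to Myc per kilobase was 3.09 and 5.35 in Shh null and 7.51 and 5.83 in wild type.

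The Mycn promoter is shown because it was the only one of the 5 members with a promoter sequence (Ccnd3, Ccne1, Ccnb1, Ccnb2 and Mycn) to hold E2F letters, which 1.84% of all promoters in the table held. E2F factors are the transcription factors released when cyclin D and cyclin E kinases phosphorylate the retinoblastoma protein. Capitals in this sequence (RefSeq, GRCm38.p6, chr12:12941787-12942086, minus strand, 5′ to 3′) mark E2F matches on the printed strand that begin at bases 68 and 83 and one on the opposite strand that begins at base 72, overlapping the match at base 68. The last capitals, from base 237, are a CHR match on the opposite strand. No promoter of these 5 members held the GLI letters, which 0.253% of all promoters held. For Ccnd3 this covers both its windows, chr17:47504801-47505100 and chr17:47593217-47593516.
Mycn: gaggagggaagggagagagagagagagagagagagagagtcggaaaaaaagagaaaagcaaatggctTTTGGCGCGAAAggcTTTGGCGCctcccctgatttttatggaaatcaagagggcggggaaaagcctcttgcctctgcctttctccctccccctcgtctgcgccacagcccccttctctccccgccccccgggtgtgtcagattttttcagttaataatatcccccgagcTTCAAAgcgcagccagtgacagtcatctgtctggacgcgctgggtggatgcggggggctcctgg

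**Figure D3:**
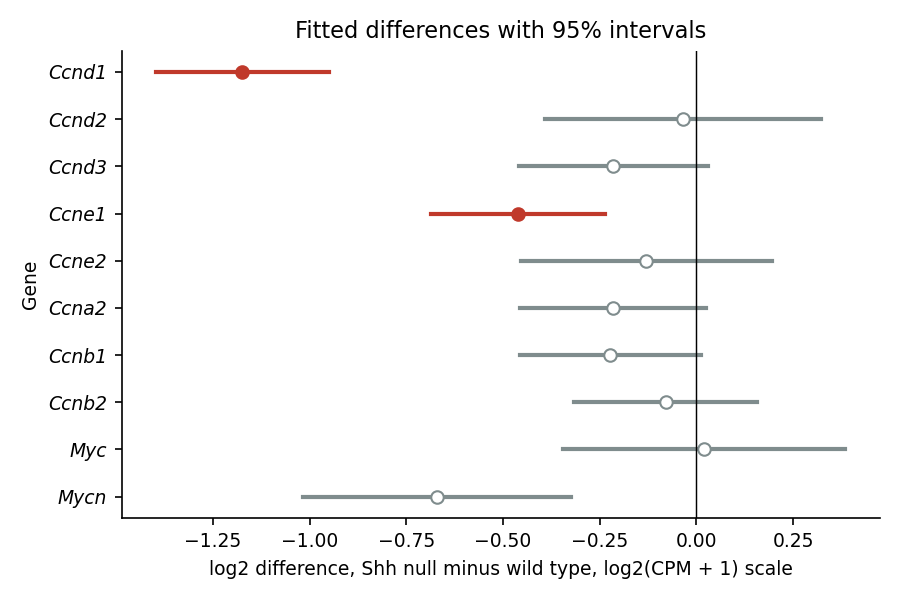
Fitted log2 differences of the 10 genes, Shh null minus wild type, with 95% intervals from limma. Filled red points are called and open grey points are not. The intervals of Ccnd1 (−1.40 to −0.95), Ccne1 (−0.69 to −0.24) and Mycn (−1.02 to −0.32) lie below 0, and the Mycn adjusted p of 0.0566 missed the threshold.

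By level per kilobase of exon, the order of the genes was the same in both groups at the top. This order rests on the exon lengths used and may differ with others, above all for Ccnd3. In Shh null it was Ccnb1 (241 CPM per kilobase), Ccnb2 (125), Ccna2 (68.2), Ccne1 (45.8), Ccnd1 (23.7), Ccnd2 (20.1), Ccnd3 (18.4), Mycn (16.4), Ccne2 (6.27) and Myc (3.998 CPM per kilobase). In wild type it was Ccnb1 (282 CPM per kilobase), Ccnb2 (132), Ccna2 (79.1), Ccne1 (63.4), Ccnd1 (53.8), Mycn (26.0), Ccnd3 (21.5), Ccnd2 (21.0), Ccne2 (6.90) and Myc (3.93 CPM per kilobase). Neighbours whose libraries overlapped were Ccnd3 and Mycn in Shh null and Ccnd3 and Ccnd2 in wild type. The wild-type libraries of Mycn also overlapped those of Ccnd2, and in both libraries numbered 2 Mycn stood between Ccnd2 and Ccnd3. Summed over the 8 cyclin genes, the level was 1420 ± 64.4 CPM in Shh null and 1734 ± 18.2 CPM in wild type (SD, n = 2 each).

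The genes with the profile nearest to each called gene were found by Euclidean distance between gene-centred log2(CPM + 1) values over the 4 libraries. For Ccnd1 they were Rspo3 (distance 0.0686), Hsd11b2 (0.0717) and Enpp2 (0.137). Rspo3, which encodes a secreted enhancer of WNT signalling, was at 12.4 and 11.5 CPM in Shh null and 29.4 and 28.9 CPM in wild type (limma adjusted p = 0.00141). For Ccne1 they were Mthfd1 (distance 0.0221), Fmn1 (0.0296) and Ddx21 (0.0329). Mthfd1, which encodes an enzyme of folate metabolism, was at 93.2 and 101 CPM in Shh null and 127 and 139 CPM in wild type (limma adjusted p = 0.0486). Likeness over 4 libraries is a description.

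The other genes of the pathway were taken from 9 lists of 98 genes, of which 92 were tested. Of these, 2 were called higher (Ccng2 and Mxd4), 2 lower (Cdk6 and Cdc6) and 88 were not called, against 1.24% called in each direction over all tested genes. Cdk6, a catalytic partner of the D-type cyclins, fell to 8.58 and 6.82 CPM in Shh null, against 21.2 and 26.1 CPM in wild type. Both Shh null values were far below both wild-type values, with a log2 difference of −1.50 ± 0.17 (SE; limma adjusted p = 0.0018), and the call held in all 14 alternatives. The other 3 catalytic partners were lower in both Shh null libraries but not called. Over all tested genes the groups did not overlap, with Shh null lower, in 25%. Cdk4 was at 677 and 679 CPM in Shh null and 814 and 725 CPM in wild type. Cdk2 was at 128 and 125 CPM in Shh null and 143 and 150 CPM in wild type, and Cdk1 at 365 and 464 CPM in Shh null and 492 and 483 CPM in wild type. The limma adjusted p values were 0.401 for Cdk4, 0.272 for Cdk2 and 0.327 for Cdk1.

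Among 13 tested other cyclin genes Ccng2, the gene of the growth-restraining cyclin G2, rose as the 1 called. It was at 178 and 174 CPM in Shh null and 128 and 134 CPM in wild type (log2 difference 0.42 ± 0.09 SE, limma adjusted p = 0.0484). The Ccng2 call ended in 6 of 14 alternatives, among them without Shh null 1 (0.308), Shh null 2 (0.133) or wild type 1 (0.1235). Among 10 tested genes of the MAX network, which holds the partners and antagonists of MYC, the antagonist gene Mxd4 rose. Mxd4 was at 78.5 and 58.3 CPM in Shh null and 31.0 and 38.8 CPM in wild type (log2 difference 0.94 ± 0.16 SE, limma adjusted p = 0.0156), and its call ended without Shh null 1 (0.211). The next smallest p in this network was that of Mxd1, another antagonist gene, at 20.5 and 15.4 CPM in Shh null and 13.0 and 12.1 CPM in wild type (adjusted p = 0.161). Max, the gene of the shared partner, was at 24.4 ± 0.27 CPM in Shh null and 27.0 ± 4.43 CPM in wild type (SD, n = 2 each; adjusted p = 0.645).

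Of the CDK inhibitor genes 5 were tested and 0 called by limma, edgeR or DESeq2. The unadjusted limma p was under 0.05 for 3, of which 2 were higher in Shh null. Over all tested genes 18.5% had such a p. Cdkn1c, which encodes p57, was at 429 and 386 CPM in Shh null and 343 and 336 CPM in wild type (log2 difference 0.26, adjusted p = 0.2). Cdkn1a, the p21 gene and a target of p53, was at 0.664 and 1.83 CPM in Shh null and 2.42 and 2.70 CPM in wild type (log2 difference −0.71, adjusted p = 0.176). Of the 5 CDK inhibitor genes 4 had a log2 difference above 0, with a median of 0.26, where 50.1% of all tested genes were below 0. Of 13 tested retinoblastoma and E2F genes, 0 were called by limma, edgeR or DESeq2. An unadjusted limma p under 0.05 was found for 2 of the 13, against 18.5% of all tested genes. The smallest p values were those of E2f5 (32.0 and 45.2 CPM in Shh null, 54.3 and 55.6 CPM in wild type, adjusted p = 0.112) and E2f4 (60.7 and 59.7 CPM in Shh null, 69.9 and 77.0 CPM in wild type, 0.188). Their list median of −0.07 became 0.0033 with library size as the only scaling.

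Of 9 tested CDK activating and restraining enzymes 0 were called by limma, edgeR or DESeq2. The unadjusted limma p was under 0.05 for 3 of the 9, against 18.5% of all tested genes. Cdk7, which activates other CDKs (132 and 131 CPM in Shh null, 155 and 158 CPM in wild type, limma adjusted p = 0.187), and the phosphatase gene Cdc25a (112 and 105 CPM in Shh null, 124 and 133 CPM in wild type, 0.217) had the smallest p values. Of 10 genes of cyclin and Myc turnover 0 were called by the same tools. The unadjusted limma p was under 0.05 for 3 of the 10, against the same 18.5%. Skp2, which encodes a ubiquitin ligase subunit, was at 215 and 217 CPM in Shh null and 255 and 259 CPM in wild type (limma adjusted p = 0.182), and the mitotic kinase gene Aurka at 132 and 141 CPM in Shh null and 169 and 158 CPM in wild type (0.198). The turnover list median of −0.06 had the opposite sign with quantile normalization (0.02) and with library size alone (0.02).

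The 16 regulators of S phase and mitosis had a median log2 difference of −0.22, and all 16 were below 0. Over all tested genes 50.1% were below 0 and 1.24% were called lower. Of the 16, 15 were below 0 with quantile normalization and 14 with library size alone. The median of the 16 was −0.13 with quantile normalization and −0.14 with library size alone. Cdc6, which loads the replicative helicase, fell to 120 and 121 CPM in Shh null, against 175 and 164 CPM in wild type (log2 difference −0.48 ± 0.09 SE, limma adjusted p = 0.0291). It was the 1 called of the 16, and its call ended in 6 of 14 alternatives, among them without either Shh null library (0.23 and 0.115) and without wild type 1 (0.0675). All 12 MYC target genes were below 0 in the reported fit and under quantile, median-ratio and library-size scaling, with a reported median of −0.31, against −0.0005 over all tested genes. With quantile normalization the MYC target median was −0.20. Of these 12, 0 were called by limma and edgeR, 3 by DESeq2, all lower, and 8 had an unadjusted p under 0.05 in limma, each with a lower level. The shares over all tested genes were 2.06% lower in DESeq2 and 9.02% lower at that unadjusted p. Polr1b, which encodes a subunit of RNA polymerase I, was at 66.9 and 60.5 CPM in Shh null and 83.9 and 90.8 CPM in wild type (limma adjusted p = 0.059). Nme1, a nucleoside diphosphate kinase gene, was at 196 and 240 CPM in Shh null and 304 and 281 CPM in wild type (0.0892). Counts and medians of the lists are descriptions.

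**Figure D4:**
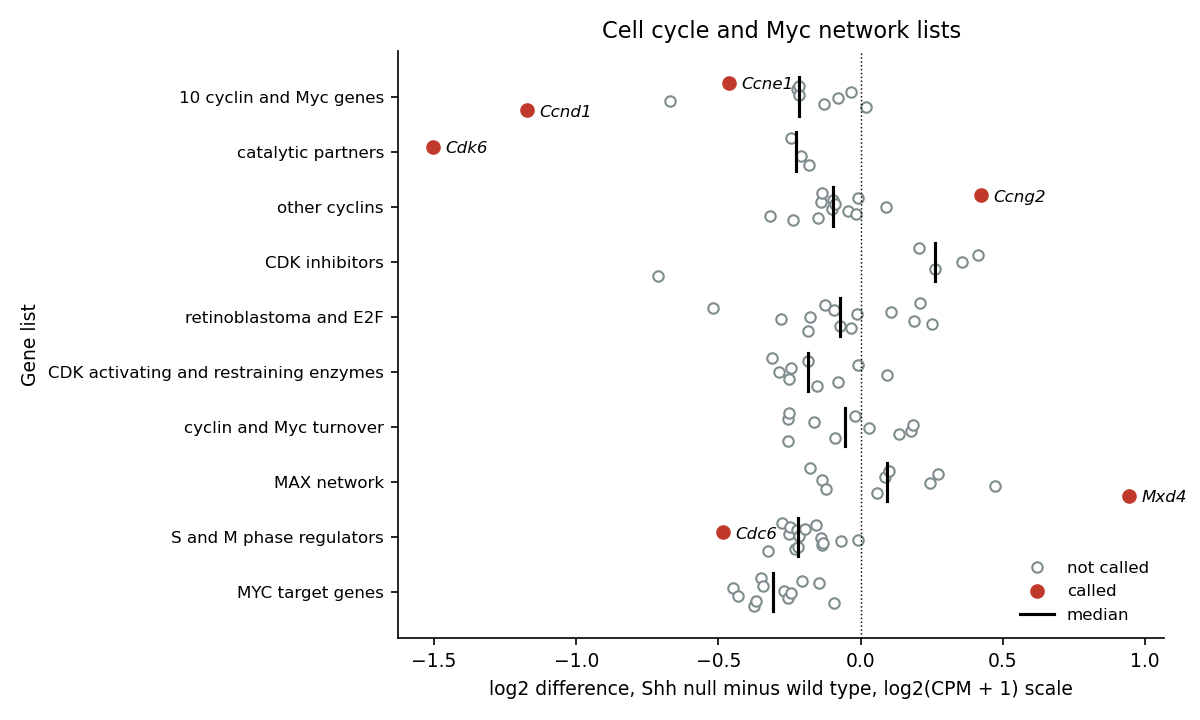
Log2 differences of the 10 cyclin and Myc genes and of the tested genes of 9 lists, Shh null minus wild type. Each point is a gene, red where called, and black bars are list medians. The MYC target genes all lie left of 0 with a median of −0.31, Cdk6 lies farthest left at −1.50, and Mxd4 farthest right at 0.94.

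Some of the genes share exon sequence with other annotated genes. In the GENCODE M21 annotation (mm10) exons of Ccnd1 share 1100 bases with LTO1, listed in the table under its older name Oraov1, on the opposite strand. Oraov1 was at 14.4 ± 1.98 CPM in Shh null and 13.8 ± 1.71 CPM in wild type (SD, n = 2 each; limma adjusted p = 0.872). Exons of Ccna2 share 510 bases with Exosc9, those of Ccne2 609 bases with Ints8, those of Ccnd3 361 bases with Bysl, and those of Ccnd2 372 and 368 bases with 2 antisense genes, all on the opposite strand. Whether the counting used strand is not given in the sources used here. Without strand, reads in these stretches cannot be told apart by strand. Processed pseudogenes are annotated for Ccnd3, Ccnb1 and Ccnb2, and reads may have been split with them.

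**Figure D5:**
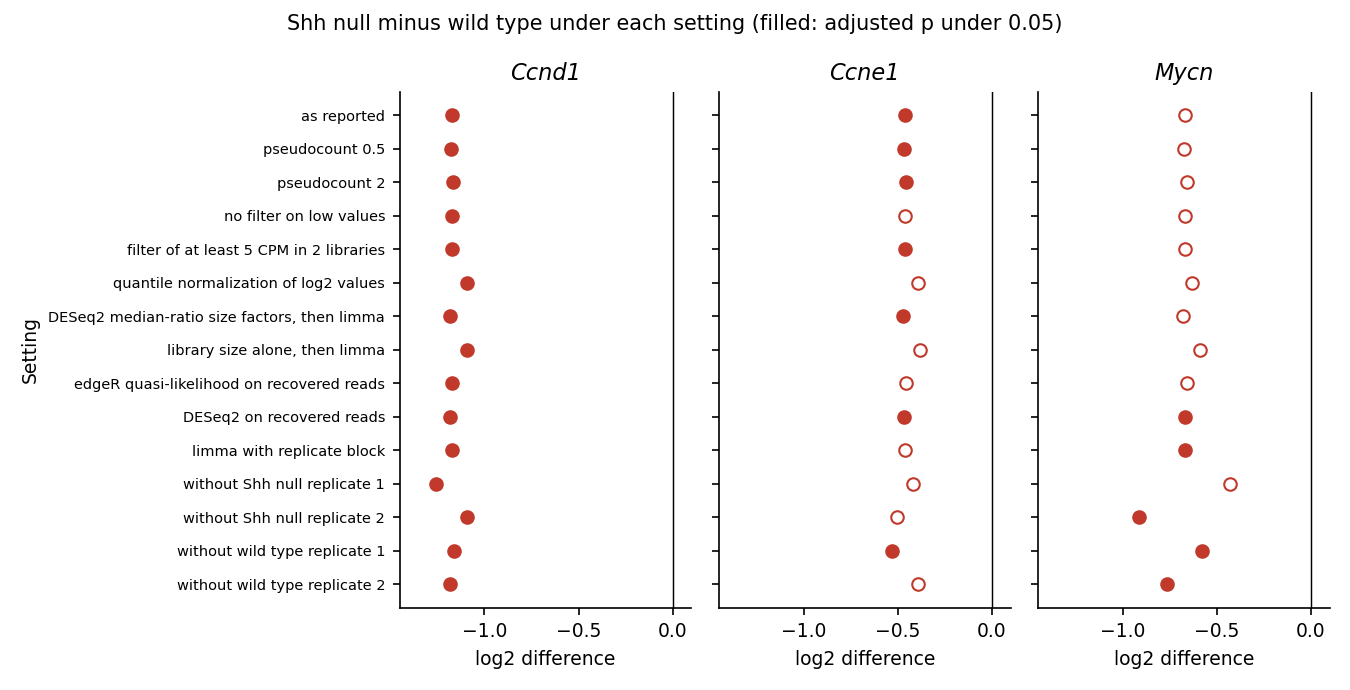
Log2 differences of Ccnd1, Ccne1 and Mycn, Shh null minus wild type, as reported and under 14 other settings, filled where the adjusted p was under 0.05. Ccnd1 is filled in every setting, between −1.26 and −1.09, Ccne1 in the reported fit and 6 others, and Mycn in 5.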

How the data were processed

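RNA from Shh null and wild-type mouse forelimbs was sequenced, with 2 libraries per group, grouped by the genotype label. The submitters' processing notes name build mm10 and the tools edgeR 3.4.2, HTSeq 0.5.4p5, SAMtools and TopHat2 2.0.9. Their roles, the gene annotation and any use of strand were not given in these sources. The authors deposited a signal per gene and library, called normalized counts, which equalled CPM of the TMM-scaled library. All values (100%) were whole multiples of the value of 1 read within 0.001 reads, so whole reads were recovered. A read was worth 0.0351 to 0.0551 CPM. The authors deposited log2 fold changes and p-values in a second table, quoted only where named.

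Genes with at least 1 CPM in at least 2 libraries (13224 of 17712) were fitted with limma 3.58.1 (R 4.3.3, intensity trend) on log2(CPM + 1) with genotype as the only term. Alternatives were edgeR 4.0.16 and DESeq2 1.42.0 on the recovered reads, other pseudocounts, filters and scalings, a replicate block and leaving out each library. DESeq2 and edgeR were not the main test because the deposited values are normalized. The limma steps were tested on simulated data. Libraries of a group differed by more than sampling noise (chi-square per degree of freedom 13.2 in Shh null and 19.5 in wild type). The members and lists were chosen with earlier results of these data known. Named genes were the 10 members, Shh, Gli1 and Ptch1 as a check of the labels, for each called member its 3 nearest profiles, and per list the called genes or, with none called, the 2 with the smallest p; Cdk1, Cdk2, Cdk4, Max and Mxd1 were named after their values were seen. Levels per kilobase used the union of exons of protein-coding transcripts in GENCODE M21 basic.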

Additional observations from a re-analysis of the deposited data

How the results depend on the processing

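All of the 14 alternatives kept the direction of Ccnd1, Ccnd3, Ccne1, Ccna2, Ccnb1 and Mycn, and 0 members were called higher in any. The members called lower numbered 2, against 1 without a filter, with quantile normalization, with library size alone and in edgeR, and 1 to 3 when 1 library was left out. With quantile normalization the log2 difference was 0.0525 for Ccnd2, 0.0287 for Ccnb2 and −0.0554 for Myc, opposite in sign to the reported ones. With library size alone it was 0.0454 for Ccnd2 and 0.0005 for Ccnb2. Leaving out 1 library gave −0.32 to 0.25 for Ccnd2, −0.27 to 0.0125 for Ccne2, −0.19 to 0.0319 for Ccnb2 and −0.11 to 0.15 for Myc. None of these 4 genes was called in any setting.

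Over all genes, 164 were called higher and 164 lower, against 79 and 91 without a filter and 253 and 273 with DESeq2. Without Shh null 1 these counts were 15 and 41, without Shh null 2 they were 39 and 60, without wild type 1 they were 271 and 188, and without wild type 2 they were 386 and 416. Library size alone gave 241 and 123. Of the pathway genes, 2 were called higher, against 1 without a filter, with median-ratio scaling and with the replicate block, and 0 to 2 when 1 library was left out. The pathway genes called lower numbered 2, against 1 without a filter, with quantile normalization and with library size alone, 5 with DESeq2, and 1 to 4 when 1 library was left out. The causes were not tested.

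The labels give no shared animal or batch for equal replicate numbers, and the deviations of equally numbered libraries correlated at r = −0.203 across genes. With the replicate block, 220 genes were called higher and 176 lower, and the members called lower were Ccnd1 and Mycn.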
